A study of Mus musculus with 4 samples.

Results

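The Hedgehog pathway genes described here are 9 genes chosen by name: Shh, Ihh, Ptch1, Smo, Gli1, Gli2, Gli3, Hhip and Sufu. They were found by symbol among the 54842 gene identifiers of the deposited count table, and all 9 were in it. RNA was sequenced from mouse embryonic fibroblasts (MEF cells), cells of the connective tissue type that were grown in culture from mouse embryos. The groups were 2 libraries of untreated wild-type (wt) MEF cells and 2 libraries of untreated MEF cells null for topoisomerase 2beta (Top2β-null), an enzyme that passes DNA strands through each other and is active in transcribed chromatin. The study asked whether this enzyme has a topological part in the transcription of satellite repeats. The Top2β-null cells came from Top2β-null mice and were a gift of other laboratories. The paper does not say whether the wt cells sequenced beside them share that source, so genotype and origin of the cells cannot be told apart. The sources do not say whether the libraries of a group came from separate cultures, so the p-values measure the spread between these libraries, which may be technical.

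Hedgehog proteins are secreted signals that pattern the limb, neural tube, gut and skeleton of the embryo. Without ligand, the receptor Ptch1 keeps the membrane protein Smo inactive, and the Gli transcription factors are held by Sufu or cut into repressors. Ligand relieves Smo, which moves into the primary cilium and lets full-length Gli proteins reach the nucleus. Gli2 is known mainly as an activator, Gli3 mainly as a repressor, and transcription of Gli1, Ptch1 and Hhip is commonly read as a sign that the pathway is on. Fibroblasts receive this signal, while the ligands are made mostly by other cells.

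The libraries held 133116830 to 149647278 counts. Top2b had normalized counts of 18259 and 18465 (wt) and of 3879 and 3789 (Top2β-null), a ratio of means of 0.209, so the targeted gene went with the labels and its transcript was not at 0. A normalized count is a count brought to a common library size, the geometric mean over the 4 libraries, with edgeR's TMM factors. Of 10 fibroblast markers, Col1a1, Col1a2, Vim and Fn1 had between 112305 and 437231 normalized counts per library, whereas Lum stayed between 0.966 and 3.96. The summed level of the 10 markers was 1300519 and 1325161 (wt) and 885712 and 890677 (Top2β-null), with 4 markers higher and 4 lower at an adjusted p below 0.05. The 4 lower were Col1a1, Col3a1, Vim and Fn1. The 4 higher were Dcn (226 and 223 for wt, 7053 and 7239 for Top2β-null), Thy1, Pdgfrb and Pdgfra. The sum is carried by the most abundant markers and does not show these rises. Summed levels of 5 endothelial markers were 164 to 167 (wt) and 253 to 258 (Top2β-null), with 1 marker higher (Kdr) and 1 lower (Tek) by adjusted p, those of 5 leukocyte markers 9.08 to 11.6 and 32.1 to 35.7 (Tyrobp at 0), those of 6 epithelial markers 39.4 to 45.4 and 15.5 to 19.8, and those of 4 neuronal markers 17.2 to 17.4 and 33.1 to 33.7. Their part in the Hedgehog results was not tested. In these bulk samples, fewer cells that express a gene and less RNA per cell cannot be told apart.

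Hhip, Gli2 and Smo were higher in the Top2β-null cells, by ratios of means of 64.1, 11.7 and 2.28. Gli3 and Sufu were higher by smaller ratios of 1.52 and 1.13. Ptch1, Gli1 and Ihh did not pass the test, and Shh had no counts. Calls followed the cut-offs in the study's methods, which ask for a mean of over 100 normalized counts, a log2 fold change beyond 1 in either direction and an adjusted p under 0.05. Of the 8 members tested, 3 were called higher (Hhip, Gli2 and Smo) and 0 lower, against 5.52% of the 25085 genes tested that were called higher and 5.25% called lower (edgeR's quasi-likelihood test, with p-values adjusted by the Benjamini-Hochberg method over genes and repeat families). The mean of over 100 that a call needs was reached by 7 of the 8 members and by 16656 of the 25085 genes tested. The shares of all genes are therefore lower than among genes that could be called. With the adjusted p as the only cut-off, 5 members were higher and 0 lower, against 32.8% and 33.7% of genes, many of them with low counts. The median log2 fold change of the 8 members was 0.39, beside -0.0058 for all genes tested.

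**Figure D1:**
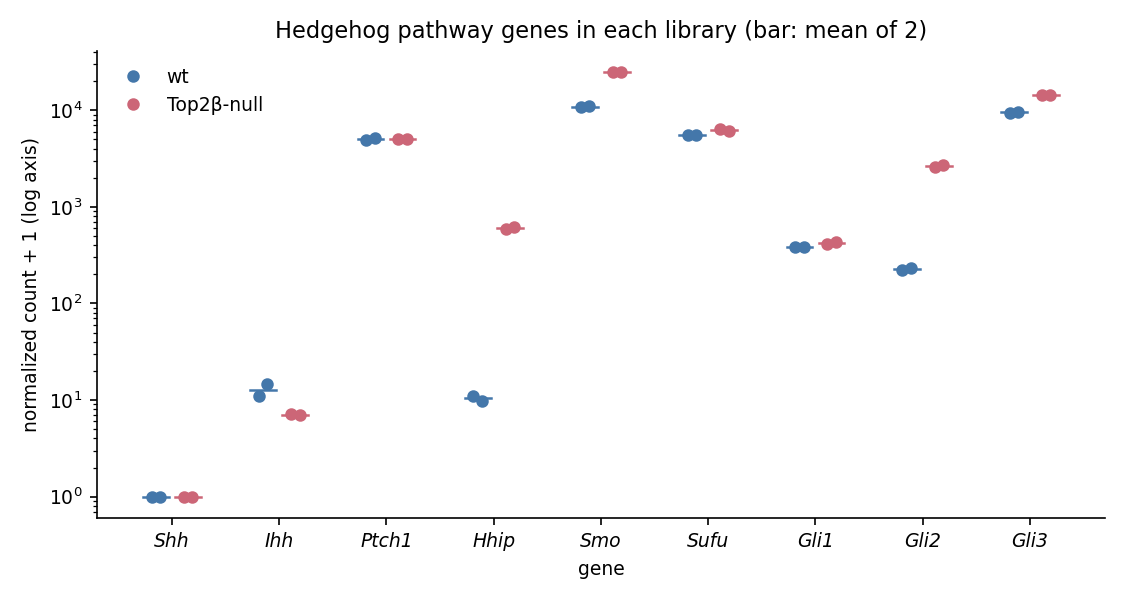
Normalized counts of the 9 Hedgehog pathway genes (y axis, log scale, 1 added so that 0 can be drawn) by gene (x axis), with a point for each library and a bar for the mean of the 2 libraries of wt (blue) and Top2β-null (red) MEF cells. Hhip rises from about 9.39 to 603 and Gli2 from 226 to 2658 normalized counts, while the points of Ptch1 overlap and all 4 libraries are at 0 for Shh.

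The promoters of the genes with the largest change, Hhip and Gli2, are shown first, since both genes rose and Hhip is a known Gli target. The 250 bases before each RefSeq start (GRCm38.p6) are printed 5′ to 3′ on the strand of the gene, with CpG dinucleotides in capitals. The Hhip stretch lies at chr8:80058009-80058258 and the Gli2 stretch at chr1:119053620-119053869, both on the reverse strand.
Hhip: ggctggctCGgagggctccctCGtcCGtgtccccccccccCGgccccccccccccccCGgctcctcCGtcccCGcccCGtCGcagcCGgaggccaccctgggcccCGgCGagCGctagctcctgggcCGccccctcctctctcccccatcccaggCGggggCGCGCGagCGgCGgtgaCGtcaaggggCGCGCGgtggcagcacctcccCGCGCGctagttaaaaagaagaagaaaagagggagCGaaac
Gli2: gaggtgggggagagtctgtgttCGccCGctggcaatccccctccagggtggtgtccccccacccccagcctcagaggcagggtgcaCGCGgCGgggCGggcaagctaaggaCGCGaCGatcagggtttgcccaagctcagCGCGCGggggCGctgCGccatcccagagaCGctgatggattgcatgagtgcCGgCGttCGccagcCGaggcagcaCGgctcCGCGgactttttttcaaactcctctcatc

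These stretches hold 28 CpG dinucleotides for Hhip and 22 for Gli2. RefSeq windows of 300 bases (250 before to 50 after the start) were at hand for 7 members, without Shh and Gli1. The GC content of the window was 73.7% for Hhip and 67.3% for Gli2, above that of 94.9% and 86.2% of all 32851 windows, whose median was 52.7%. Ptch1, which did not pass the test, had the highest GC content of the 7 (76.3%), and Sufu the lowest (56.3%). The motif bound by Gli proteins, GACCACCCA, was searched on both strands (the reverse complement is TGGGTGGTC). It was in 0 of the 7 member windows and in 0.253% of all windows, which says only that these letters are not in this stretch.

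Shh and Ihh are ligands. Shh (ENSMUSG00000002633.4, chromosome 5, 28456815 to 28467256, reverse strand, GRCm38), the signal of the notochord, floor plate and limb margin, had 0 counts in all 4 libraries, which allows up to 3 counts in each. It was therefore not tested. Ihh (ENSMUSG00000006538.12, chromosome 1, 74945315 to 74951672, reverse strand), the signal of growth plate cartilage, had 10 and 14 counts (wt) and 6 and 6 counts (Top2β-null). Its log2 fold change was -0.95 (standard error 0.505, edgeR adjusted p = 0.113), so that at this depth a difference was not detectable although the groups did not overlap. Markers of chondrocytes, which make Ihh, went both ways: Col2a1, the cartilage collagen, had normalized counts of 8.07 and 9.66 (wt) against 166 and 166 (Top2β-null), and Acan, the cartilage proteoglycan, had 98.9 and 100 against 5.18 and 3.96. The summed level of the 5 chondrocyte markers was 4793 to 4862 (wt) and 5309 to 5444 (Top2β-null), most of it from Sox9 (4377 and 4413 against 4857 and 4987), with Matn1 at or under 3 counts in every library, and their part in the Ihh values was not tested.

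Ptch1 and Hhip bind the ligands at the cell surface. Ptch1 (ENSMUSG00000021466.12, chromosome 13, 63508328 to 63573598, reverse strand), the receptor and a target of its own pathway, had normalized counts of 4936 and 5164 (wt) and of 5021 and 4997 (Top2β-null). Both Top2β-null libraries lay between the wt libraries. Its log2 fold change was -0.012 (standard error 0.0316, edgeR adjusted p = 0.76), and of the genes tested 98.3% had an absolute change at least as large. The sign of this value changed with the scaling, and scaling to Hprt gave 0.36 (edgeR adjusted p = 4.8e-09), past the threshold on the adjusted p.

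Hhip (ENSMUSG00000064325.4, chromosome 8, 79965851 to 80058006, reverse strand) is a membrane protein that binds Hedgehog ligands and limits the signal. It had 10 and 9 counts (wt) and 563 and 628 counts (Top2β-null), or 10.1 and 8.69 against 583 and 622 normalized counts. The gene was thus close to silent in wt MEF cells, and both Top2β-null libraries lay far above. Its log2 fold change was 5.99 (standard error 0.167, edgeR adjusted p = 2.0e-14), and 2.55% of the genes tested had an absolute change at least as large. The wt mean rests on 10 and 9 counts, so counting error in that group limits how well the ratio is known.

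Smo passes the signal inward, and Sufu restrains it. Smo (ENSMUSG00000001761.7, chromosome 6, 29735503 to 29761365, forward strand), the transducer at the membrane, had normalized counts of 10796 and 10983 (wt) and of 24905 and 24673 (Top2β-null). The libraries of each group lay within a few percent of each other and the groups were clearly apart. The log2 fold change of Smo was 1.19 (standard error 0.0248, edgeR adjusted p = 5.3e-16), and 18.9% of the genes tested had an absolute change at least as large. Sufu (ENSMUSG00000025231.16, chromosome 19, 46396896 to 46488804, forward strand), the protein that holds Gli factors in the cytoplasm, had normalized counts of 5505 and 5535 (wt) and of 6362 and 6106 (Top2β-null). Its log2 fold change of 0.18 (standard error 0.0297, edgeR adjusted p = 7.6e-05) passed the test on the adjusted p but lay far below the fold cut-off, and 76.0% of the genes tested changed at least as much in size.

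The 3 Gli genes encode the transcription factors at the end of the pathway. Gli1 (ENSMUSG00000025407.7, chromosome 10, 127329882 to 127341974, reverse strand), an activator that is itself switched on by the pathway, had normalized counts of 381 and 381 (wt) and of 408 and 428 (Top2β-null). Both Top2β-null libraries were above both wt libraries by a margin that did not pass the test (log2 fold change 0.14, standard error 0.0814, edgeR adjusted p = 0.159). Scaling to the total count moved this value to 0.21 and scaling to Hprt to 0.50, both past the threshold on the adjusted p.

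Gli2 (ENSMUSG00000048402.14, chromosome 1, 118834132 to 119053619, reverse strand), the main activator, had normalized counts of 222 and 231 (wt) and of 2597 and 2719 (Top2β-null). Every Top2β-null value was over 10 times every wt value. Its log2 fold change was 3.55 (standard error 0.0631, edgeR adjusted p = 6.9e-17), and 5.61% of the genes tested had an absolute change at least as large. Gli3 (ENSMUSG00000021318.15, chromosome 13, 15463235 to 15730026, forward strand), the main repressor, had normalized counts of 9359 and 9630 (wt) and of 14380 and 14435 (Top2β-null). The groups did not overlap, and the log2 fold change was 0.60 (standard error 0.0255, edgeR adjusted p = 4.2e-12), below the fold cut-off.

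**Figure D2:**
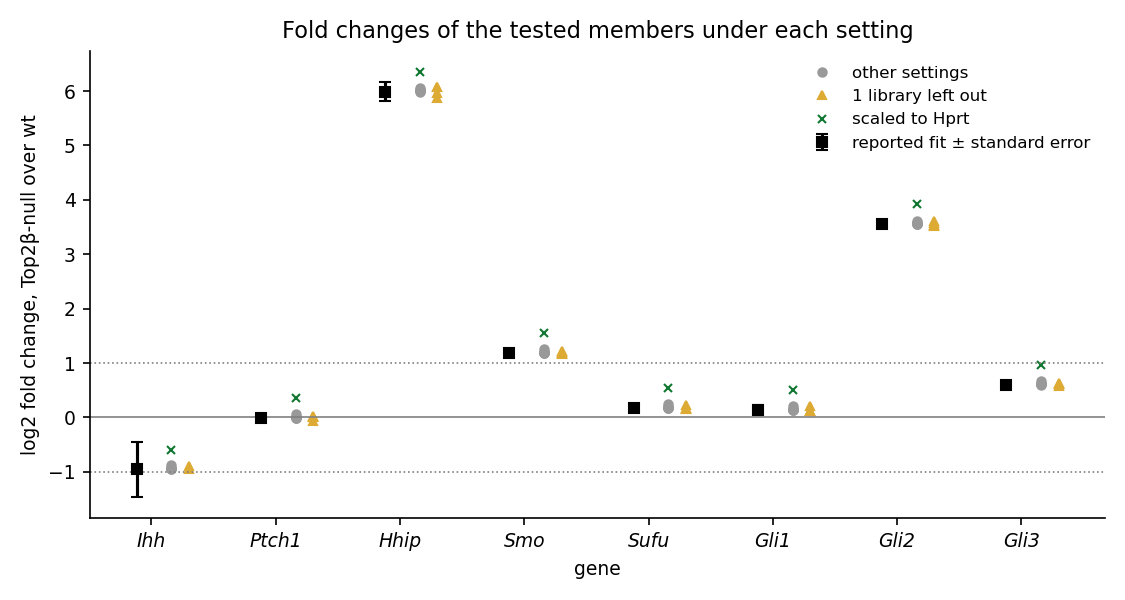
Log2 fold change of Top2β-null over wt MEF cells (y axis) for the 8 tested genes (x axis), with black squares and bars for the reported fit and its standard error, grey circles for other settings, yellow triangles for fits with 1 library left out and green crosses for scaling to Hprt; dotted lines mark the fold cut-off of 1. Hhip at 5.99, Gli2 at 3.55 and Smo at 1.19 stay above the cut-off in every fit in which they were tested.

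Some exons of the members overlap annotated genes on the opposite strand. The kit was stranded, but whether the counting used strand is not given in the sources used here. Over Gli1, with 377 to 432 counts, lie exons of Arhgap9 (10 and 5 counts for wt, 36 and 39 for Top2β-null) and of the antisense gene Gm47200 (16 and 12, and 21 and 23). Over Gli3, Gm6556 had 192 to 313 counts, and over Hhip, Gm27820 had 7 and 7 counts in Top2β-null MEF cells and 0 in wt. These counts are small beside those of Gli3 and Hhip, whereas for Gli1 the Arhgap9 counts moved in the same direction as the small Gli1 difference, and their part in it was not tested.

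To compare levels between genes, normalized counts were divided by the length of all exons annotated in GENCODE M21. This is a later release than the one the authors counted over. On this scale of normalized counts per kilobase, Smo was the highest member in both groups, with 1937 ± 23.6 (wt) and 4410 ± 29.1 (Top2β-null; SD, n = 2 each). Gli3 followed with 990 ± 20.0 and 1503 ± 4.06 per kilobase, and then Sufu with 718 ± 2.74 and 811 ± 23.6 (SD, n = 2 each). Below these in wt MEF cells came Ptch1 (356 ± 11.4 per kilobase), Gli1 (76.2 ± 0.00778), Gli2 (33.0 ± 0.906), Ihh (3.87 ± 0.796), Hhip (1.03 ± 0.109) and Shh (0). All neighbours in this wt order were farther apart than the SD of either.

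In Top2β-null MEF cells, Gli2 rose to rank 4 of the 9 with 387 ± 12.5 normalized counts per kilobase, above Ptch1 with 353 ± 1.21, Gli1 with 83.7 ± 2.80, Hhip with 66.4 ± 3.03 and Ihh with 1.99 ± 0.0630 (SD, n = 2 each). The order of Gli2 and Ptch1 depends on the length used: with the longest transcript, Ptch1 had 482 and Gli2 400 per kilobase. In the same way, Gli3 and Sufu changed places in wt MEF cells, with 1162 and 1221 per kilobase of the longest transcript.

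The make-up of the Gli family can be read within each library, with no scaling between libraries. Of the Gli counts per kilobase of exon, Gli2 made up 2.98% and 3.02% (wt libraries) against 19.3% and 19.9% (Top2β-null libraries). The share of Gli3 was 90.0% and 90.1% (wt) and 76.5% and 75.8% (Top2β-null), and that of Gli1 was 7.02% and 6.84% against 4.17% and 4.31%. Gli3 thus stayed the most abundant Gli transcript in all 4 libraries while Gli2 passed Gli1. The sum of the 3 genes was 1099 ± 20.9 normalized counts per kilobase (wt) and 1973 ± 19.3 (Top2β-null; SD, n = 2 each).

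**Figure D3:**
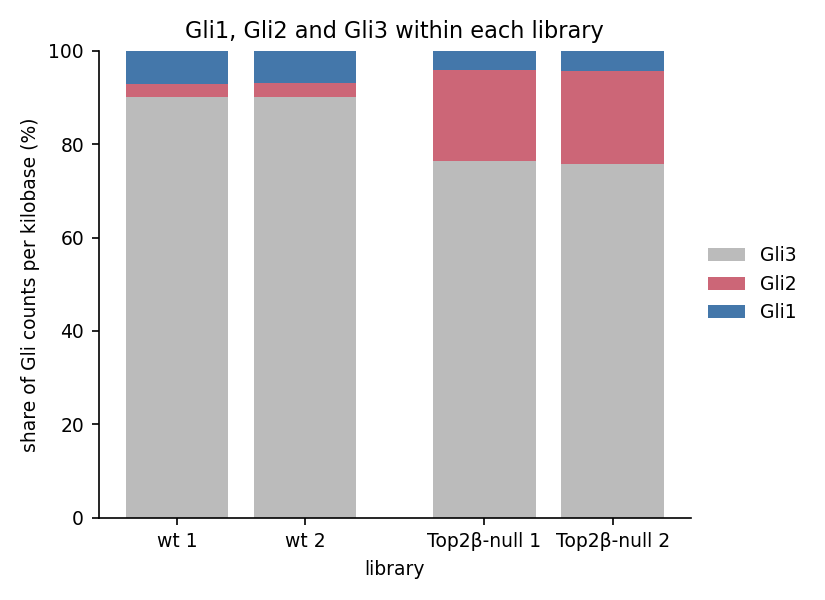
Shares of Gli1 (blue), Gli2 (red) and Gli3 (grey) in the summed Gli counts per kilobase of exon (y axis, percent) in each of the 4 libraries (x axis). The Gli2 share is 2.98% and 3.02% (wt libraries) against 19.3% and 19.9% (Top2β-null libraries).

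The counts behind these shares can also be given as ratios within a library, which is not a separate observation. The log2 ratio of Gli3 to Gli2 was 5.40 and 5.38 for wt and 2.47 and 2.41 for Top2β-null MEF cells, and thus differed by -2.95, with a pooled SD of 0.0311. The log2 ratio of Gli1 to Gli2 went from 0.78 and 0.72 to -2.67 and -2.67, a difference of -3.42 against a pooled SD of 0.0280. For receptor and transducer, the log2 ratio of Ptch1 to Smo was -1.13 and -1.09 (wt) and -2.31 and -2.30 (Top2β-null), a difference of -1.20 against a pooled SD of 0.0204. Each of these 3 differences had p = 0.33 in a two-sided exact permutation test, the smallest p that 2 libraries against 2 can give.

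The wider pathway was described by 6 lists of genes ordered by role, 67 genes in all, of which 58 are no members. Of these 58, 51 were tested, 5 were called higher and 4 lower, which is 9.80% and 7.84%, beside 5.52% and 5.25% of all genes tested. Nearly all of the 51 had the mean of over 100 that a call needs, against 16656 of the 25085 genes tested. These shares are thus not like for like and show no excess of calls in the wider pathway. The median log2 fold change of the 51 was 0.27.

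Among the 8 genes for ligands and their release, 4 were tested and 1 was called higher. This was Hhat, the enzyme that attaches palmitate to Hedgehog ligands, with normalized counts of 82.8 and 70.5 (wt) and of 448 and 405 (Top2β-null) (log2 fold change 2.48, standard error 0.128, edgeR adjusted p = 5.5e-11). Disp1, which releases the lipid-bearing ligand from the cell, had 2028 and 2245 against 3707 and 3674 normalized counts, a log2 fold change of 0.79 that lay below the fold cut-off (edgeR adjusted p = 2.9e-10). Dhh, the third ligand gene, had 1 to 5 counts per library and was not tested. The summed level of 4 markers of Schwann cells, a source of Dhh, was 190 and 220 (wt) and 120 and 77.3 (Top2β-null), with 2 markers lower at an adjusted p below 0.05 and Foxd3 at 0, and their part in the Dhh values was not tested.

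Of the 7 genes for receptors, co-receptors and inhibitors that bind ligand, 6 were tested, 1 was called higher and 1 lower, and the median log2 fold change was 0.15. The gene called higher was Hhip. Boc, a co-receptor that helps ligand bind, was called lower, with 513 and 508 against 216 and 212 normalized counts (log2 fold change -1.25, edgeR adjusted p = 2.7e-09). With scaling to Hprt, Boc was at -0.88 and no longer called. The co-receptors Gas1 and Cdon had log2 fold changes of -0.32 and 0.31, with edgeR adjusted p of 5.6e-08 and 2.2e-05. Lrp2, an endocytic receptor named after its values were seen, had a log2 fold change of 0.72 (edgeR adjusted p = 8.2e-06) and was called higher with scaling to Hprt (1.09).

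Of the 22 genes that act between Smo and Gli, all were tested and 2 were called higher, Smo and Tulp3. Tulp3 brings receptors such as Gpr161 into the cilium and had normalized counts of 6285 and 6544 (wt) against 13012 and 12698 (Top2β-null). Its log2 fold change of 1.00 lay just above the cut-off (edgeR adjusted p = 1.9e-14) and was 0.96 without wt replicate 1, where it was no longer called. With the adjusted p alone, 18 of the 22 were higher and 3 lower, beside 32.8% and 33.7% of all genes, and the median log2 fold change was 0.28. The 3 lower genes were Prkaca, a catalytic subunit of the protein kinase A that promotes Gli3 processing (log2 fold change -0.75), Ulk3, a kinase that acts on Gli proteins (-0.65), and Spop, an adaptor for their degradation (-0.46). Ulk3 and Spop were named after their values were seen. The 2 genes of the list with the highest mean count, the kinase gene Csnk1a1 and the regulatory subunit gene Prkar1a, had log2 fold changes of 0.075 and 0.12. Both are among the 18 (edgeR adjusted p = 0.0188 and 6.5e-04), as small changes pass the adjusted p in abundant genes. Many of all genes tested have low counts, so their shares and the counts of this list are not like for like.

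Of the 15 genes for transport and membrane of the primary cilium, all were tested, 1 was called higher and 1 lower, and the median log2 fold change was 0.24. Dync2h1, the motor of transport back to the cell body, had normalized counts of 2715 and 2743 (wt) and of 5681 and 5551 (Top2β-null) (log2 fold change 1.04, edgeR adjusted p = 1.2e-13). Ift27, a small GTPase of the transport complex, had 2039 and 1968 against 684 and 708 (log2 fold change -1.52, edgeR adjusted p = 4.1e-13). The 3 genes with the highest mean among the others were Inpp5e, Kif3b and Ift80, with log2 fold changes of -0.19, 0.089 and 0.37.

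The list of target genes known from mesenchyme and other tissues held 15 genes, 3 of them members, and 12 were tested. Of these, 3 were called higher and 2 lower, and the median log2 fold change was 0.062. Beside Hhip, the genes called higher were Foxf1, a forkhead factor of gut and lung mesenchyme, with normalized counts of 664 and 593 (wt) and of 1967 and 2191 (Top2β-null) (log2 fold change 1.73, edgeR adjusted p = 1.4e-12), and Ccnd2, a cyclin of the G1 phase, with 28036 and 28369 against 61259 and 61824 (log2 fold change 1.13, edgeR adjusted p = 1.6e-15). The genes called lower were Pax9, a factor of the sclerotome, with 1004 and 1033 against 495 and 479 normalized counts (log2 fold change -1.06, edgeR adjusted p = 3.1e-10), and Foxl1, a forkhead factor of gut mesenchyme, with 542 and 581 against 287 and 269 (log2 fold change -1.02, edgeR adjusted p = 2.2e-08). Foxl1 was at -0.98 without wt replicate 2 and at -0.95 without Top2β-null replicate 2, where it was no longer called, and both genes were above -1 with scaling to the total count.

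Mycn, a target that drives growth and was chosen here after its values were seen, had 70 and 53 counts in Top2β-null MEF cells and 0 in either wt library, at least 21.1-fold higher against a floor of 3 counts per wt library. Its mean lay under the cut-off of 100. Ccnd1 and Rab34, both abundant, had log2 fold changes of -0.13 and -0.21. Scaling to Hprt adds about 0.37 to every log2 fold change, so that negative values closer to 0 than this turn positive under it, among them those of Ptch1, Gas1, Inpp5e, Ccnd1 and Rab34. Targets that rose, targets that fell and targets such as Ptch1 and Gli1 that did not pass the test thus stood side by side in the list.

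**Figure D4:**
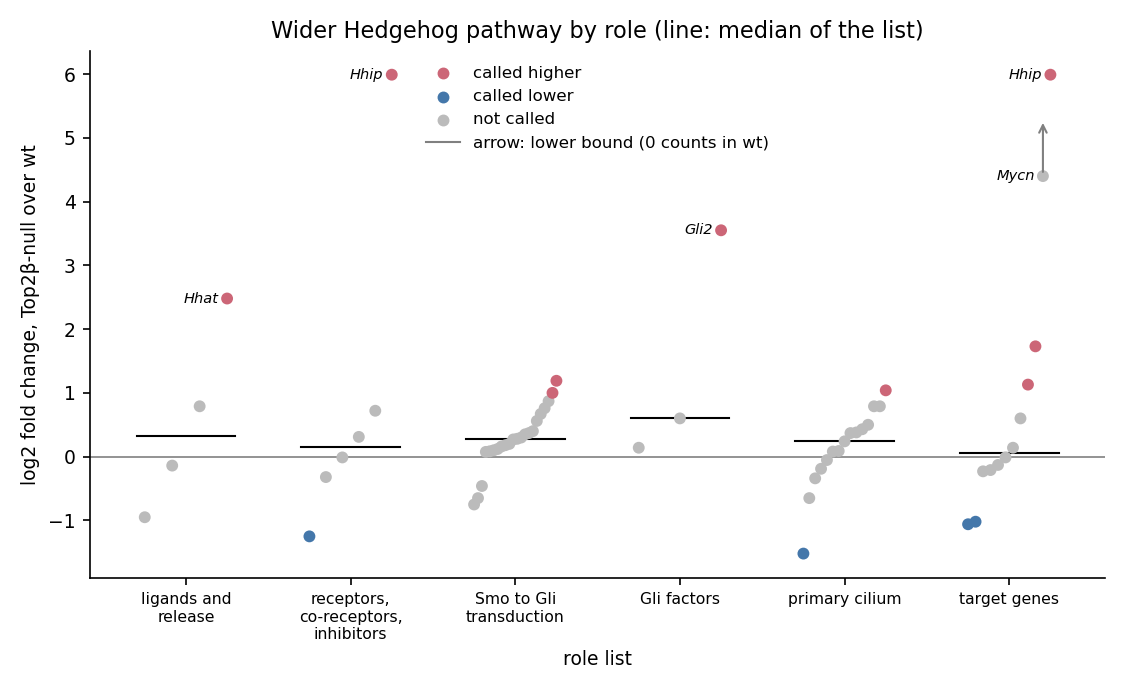
Log2 fold change of Top2β-null over wt MEF cells (y axis) for each tested gene of the 6 role lists (x axis), with genes called higher in red, called lower in blue and the rest in grey, and a black line at the median of the list (Mycn is drawn at its lower bound of 4.40, and genes in more than 1 list in each). The medians lie between 0.062 for target genes and 0.60 for the 3 Gli genes.

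The tested genes whose level and pattern over the 4 libraries lay nearest to Gli1 were Ica1l, Kcnip4 and Pigyl, at Euclidean distances of 0.0376, 0.0774 and 0.0916 in log2(normalized count + 1). For Ptch1 they were Nepro, Lypla2 and Med24, at 0.0521, 0.0555 and 0.0622. These distances rest on 4 libraries and describe only that the values lie close together.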

How the data were processed

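The 2 wt and 2 Top2β-null MEF libraries were made from total RNA after removal of ribosomal RNA. The values deposited are raw counts for each gene and each repeat family. Per the labels and the paper's methods, the authors trimmed the read pairs (Trim Galore!), mapped them with STAR to mm10, which is GRCm38, and ran TEtranscripts on Gencode genes and RepeatMasker families, without normalization. Whether the counting used strand is not given in the sources used here.

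Of 54842 gene identifiers, 54495 matched GENCODE M21 by identifier without version, which gave symbols, GRCm38 positions and exon lengths. The authors counted over an earlier Gencode release, so exon lengths may differ from those behind the counts. The members and lists were chosen with earlier results of these data known. Most named genes are members, genes called in a role list, up to 3 abundant genes per list, Top2b, markers, and the 3 genes nearest to Gli1 and to Ptch1. Hprt was named as a scaling reference, and genes that overlap a member by their position. A gene of the role lists is not reported here and was left out of their counts. Other named genes, such as the neighbours, were chosen after their values were seen.

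In R 4.3.3, edgeR 4.0.16 was fitted to 25085 genes and 1481 repeat families that reached 10 counts in 2 or more libraries, using TMM factors and the quasi-likelihood test, with Benjamini-Hochberg adjustment over all 26566 features. Standard errors were taken as the size of the log2 fold change over the square root of F. Calls needed a mean of over 100 normalized counts, a log2 fold change beyond 1 in either direction and an adjusted p under 0.05. The tests were tested on simulated data. Alternatives were DESeq2 1.42.0, other scalings, other filters, a replicate block and leaving out each library.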

Additional observations from a re-analysis of the deposited data

How the results depend on the processing

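Of 54 alternative log2 fold changes of the 8 tested members from fits with all libraries and other settings, 48 kept their direction and their side of the adjusted p threshold, 4 changed direction (1 of them newly past the threshold) and 2 passed it newly in the same direction. The changes of direction were all in Ptch1: 0.0070 with TMM factors from genes only, 0.058 when scaled to the total count, 0.36 when scaled to Hprt (edgeR adjusted p = 4.8e-09) and 0.0052 without a filter on low counts. With each library left out, Ptch1 ranged from -0.059 to 0.024. Gli1 passed when scaled to the total count (0.21) or to Hprt (0.50). Scaling to Hprt, which was itself lower in Top2β-null MEF cells, moved the median of all genes by 0.37, and relative to that median Ptch1 was at -0.0059, Smo at 1.19, Gli2 at 3.56 and Hhip at 5.99. With each library left out, Hhip ranged from 5.87 to 6.08, Gli2 from 3.51 to 3.62, Smo from 1.16 to 1.22 and Gli3 from 0.57 to 0.64. A filter of 100 counts in every library leaves out Hhip and Ihh, and leaving out a wt library leaves out Ihh, so no value was had for them there. The cause of these changes was not tested.

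With the adjusted p as the only cut-off, 5 members were higher. Small changes pass this cut-off where counts are high, so lists of abundant genes and all genes tested are not compared like for like. In the role lists this cut-off, passed higher by 32.8% and lower by 33.7% of all genes tested, gave, for ligands, 2 higher; for receptors, 3 higher and 2 lower; for signal transduction, 18 higher and 3 lower; for Gli factors, 2 higher; for the cilium, 9 higher and 4 lower; and for targets, 5 higher and 5 lower. Scaling to Hprt gave 2 ligand genes higher, 2 receptor genes higher and 0 lower, 5 transduction genes higher, 3 cilium genes higher and 0 targets lower, and with it 9.06% of all genes were called higher and 3.05% lower, beside 5.52% and 5.25% in the reported fit. With 100 counts in every library, 0 ligand genes and 0 receptor genes were called higher, because this filter removes Hhat and Hhip, which have under 100 counts in wt MEF cells. Targets called lower numbered 1 with TMM factors from genes only and without a filter, and 0 with scaling to the total count. With each library left out, transduction genes called higher 1 to 2 and targets called lower 1 to 2. For the ratios within a library, the difference ranged from -3.45 to -3.39 for Gli1 to Gli2 and from -2.98 to -2.92 for Gli3 to Gli2. With 1 mismatch allowed, the Gli motif was in 0 member windows and in 6.74% of all windows.

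Libraries are numbered 1 and 2 in each genotype. A fit with this number as replicate block gave log2 fold changes of 5.99 for Hhip, 3.55 for Gli2, 1.19 for Smo and -0.012 for Ptch1, and no call on a member or count of calls in a role list changed. The correlation between deviations of libraries with the same number was 0.0207 (17952 features, not independent of each other), and the labels tie nothing else to the number. With 2 libraries per group, the spread within a group is poorly known, and depth limits what can be said of Ihh, Shh and of Hhip in wt MEF cells.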

Other observations

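The protein-coding genes next to the members, up to 2 tested on each side, were examined after the values of the members had been seen. Of 36 such neighbours, 5 were called higher and 1 lower, beside 5.52% and 5.25% of all genes tested. All genes tested also hold noncoding genes and many genes under the mean cut-off, so the shares are not like for like. None of the 4 neighbours of Hhip was called: Smarca5, the most changed, had a log2 fold change of 0.50, and Abce1 one of 0.034. Of the 4 neighbours of Gli2, Inhbb, a subunit of activin that lies 362 kb away, was called higher with normalized counts of 87.8 and 90.8 (wt) and of 280 and 235 (Top2β-null). Inhba, also an activin subunit gene, lies 282 kb from Gli3 and had 6966 and 6804 against 14911 and 14779. Tfcp2l1, on the other side of Gli2, had 168 and 161 against 29.0 and 17.8 normalized counts, a log2 fold change of -2.81 with a mean under the cut-off.

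At the Shh locus, where Shh itself had 0 counts, Lmbr1 had normalized counts of 14.1 and 8.69 (wt) and of 773 and 867 (Top2β-null), a log2 fold change of 6.16 (edgeR adjusted p = 9.2e-15). An intron of Lmbr1 is known to hold the limb enhancer of Shh. Rnf32, the gene before it, had 8.07 and 3.86 against 105 and 120 normalized counts, with a mean under the cut-off, and was not called. Both lie over 700 kb from Shh, whose nearest tested neighbour on the other side, Rbm33, had a log2 fold change of 0.27. The cause was not tested.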
